A study of Mus musculus with 6 samples.

Results

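Keratin-associated proteins were described here through the 51 mouse genes whose symbol in the deposited table starts with Krtap and a digit, out of 22895 genes. The rule uses the symbol and no measured value. The members occupied 52 of the 23726 gene models, because Krtap4-13 had 2 duplicate models, which were summed. RNA was sequenced from 6 libraries of a skin carcinogenesis series in which skin was painted with the carcinogen DMBA and the tumour promoter TPA. The cultures were mSCC-38, labelled highly tumorigenic, and mSCC-20, labelled non-tumorigenic, each grown from a DMBA/TPA tumour. The biopsies were 1 DMBA/TPA tumour, 2 distinct DMBA/TPA papillomas (papilloma 2 and papilloma 1) and 1 healthy skin. The labels give no strain, age, treatment time or stage of the hair cycle, nor whether separate mice bore the papillomas. P-values therefore cover no more than the spread of these samples, part of which may be technical. Every group except papilloma had 1 library, and those values have no replicate check. Total RNA went into a library kit sold for small RNA on SOLiD instruments in all 6 cases.

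Keratin-associated proteins form the matrix of the hair shaft. They are small proteins, cross-linked through cysteines to the hair keratin filaments, and they are made late in the differentiation of cortex and cuticle cells of a growing follicle, after the hair keratins. They are sorted by amino acid composition into high sulphur, ultrahigh sulphur and high glycine-tyrosine families, and most are encoded by intronless genes in dense chromosomal clusters. A culture of epidermal tumour cells contains no hair follicle.

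The libraries held between 25140489 (papilloma 1) and 42992597 (tumour) counts. Levels are given as CPM (counts per 1000000 counts), scaled with TMM factors of 0.848 to 1.20. Where a gene had 0 counts, a true level of up to 3 counts remains possible, equal to 0.0905, 0.0974, 0.0712, 0.106, 0.141 and 0.0603 CPM in mSCC-38, mSCC-20, tumour, papilloma 2, papilloma 1 and skin. Such floors and all 95% intervals below (exact, Clopper-Pearson) cover counting error only. The basal keratinocyte keratin gene Krt14 was high in all 6 libraries, at 3055, 6607, 13601, 17725, 24632 and 1864 CPM in the same order. The suprabasal keratin gene Krt10 had 10.1 and 10.1 CPM in mSCC-38 and mSCC-20, and 94.6, 8326, 10827 and 4644 CPM in tumour, papilloma 2, papilloma 1 and skin. The cultures therefore showed the marker of the basal layer and very little of the suprabasal marker.

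The 51 members lay in 4 chromosomal clusters: 22 on chromosome 16, 21 on chromosome 11, 5 on chromosome 7 and 3 on chromosome 10. Of the 52 member models, 50 (96.2%) had a length equal to their genomic span, as a gene without introns has, against 14.996% of all models. Their median length was 823.5 bases (303 to 1651), against 2167 bases over all models. Classed by family number, 19 members were high sulphur, 17 ultrahigh sulphur and 13 high glycine-tyrosine, and the 2 Krtap31 genes were not classed. All 51 matched a RefSeq gene, and 8 carry another symbol there, which set their family: Krtap16-7 is Krtap21-1, Krtap16-8 is Krtap6-5, Krtap8-2 is Krtap19-5, Krtap16-10 is Krtap16-3, and Krtap16-9, Krtap16-1, Krtap16-5 and Krtap16-4 are Krtap19-1 to Krtap19-4. Members resemble each other in sequence: the share of a member's 35-base words that occur in another annotated gene ranged from 0% to 88.2% (Krtap4-13), and 20 members were under 10%. Counts of closely similar members are therefore uncertain as to which of them the reads came from. Krtap16-10 was counted as high sulphur by its family number alone. The gene with which it shared the most words was Krtap16-1, of a high glycine-tyrosine family, so its class is uncertain.

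Krtap RNA was abundant in healthy skin, at 25.04% of that level in papilloma 2, and close to absent from papilloma 1, the tumour and both cultures. The members took 278 counts (0.000898% of the library) in mSCC-38, 409 (0.00132%) in mSCC-20, 846 (0.00197%) in the tumour, 126568 (0.422%) in papilloma 2, 266 (0.00106%) in papilloma 1 and 887747 (2.14%) in skin. Their summed level was 8.39, 13.3, 20.1, 4470, 12.5 and 17849 CPM in that order. As a share of skin this was 0.0470% in mSCC-38, 0.0744% in mSCC-20, 0.112% in the tumour, 25.04% in papilloma 2 and 0.0699% in papilloma 1. The share in papilloma 1 was 0.0517% without Krtap3-2, 0.0453% with deposited RPKM values and 0.0452% over the 20 members that share few words with other genes. The papillomas thus stood on opposite sides: papilloma 2 was nearer to skin and papilloma 1 nearer to the tumour and the cultures. In bulk RNA, fewer hair-forming cells and less RNA per cell cannot be told apart. RNA integrity, as labelled, was 9.6, 9.3, 9.1, 8.2, 8.4 and 7.5 in that order, lowest in skin and next lowest in papilloma 2; its part in the result was not tested.

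**Figure D1:**
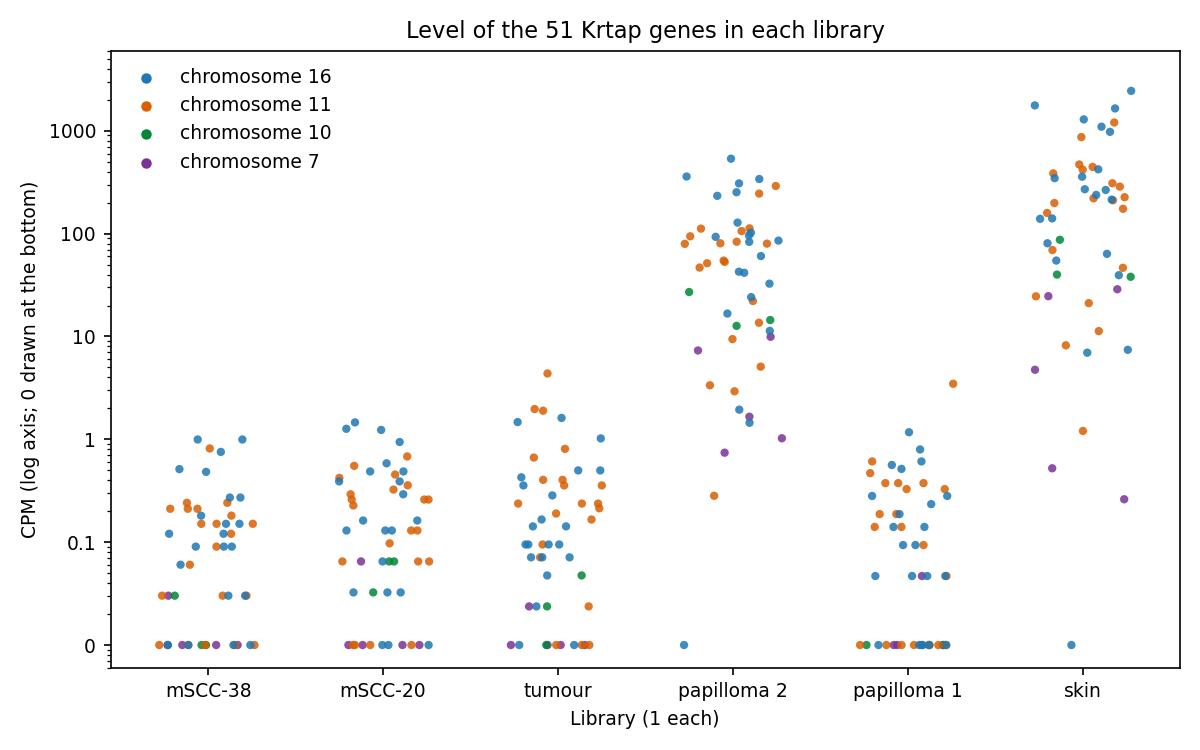
Level of each of the 51 Krtap genes (points, coloured by chromosome) in each library, in CPM on a log axis with 0 drawn at the bottom. Most genes lie above 10 CPM in skin and papilloma 2, while none reaches 5 CPM in papilloma 1, the tumour, mSCC-20 or mSCC-38, where the highest are 3.47, 4.37, 1.46 and 0.996 CPM.

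In skin, Krtap genes ranked among the most abundant transcripts per length. Krtap8-1, the sole member of its high glycine-tyrosine family here under its RefSeq name, was the highest of all gene models at 4227 CPM per kb. Krtap7-1 was 3rd (2846 CPM per kb), Krtap22-2 was 4th (2577) and the high sulphur gene Krtap15 was 9th (1975). Members made up 4 of the 10 highest models, 10 of the 50 highest and 17 of the 100 highest. In papilloma 2 the same genes ranked 61st, 101st, 71st and 137th. Of the 51 members, 43 had at least 10 CPM in skin; Krtap31-2 (11.3 CPM) was just inside this limit and Krtap9-5 (8.20 CPM) just outside.

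The chromosome 16 cluster held most of the Krtap RNA, with 2849 CPM in papilloma 2 and 11867 CPM in skin. Krtap8-1 (chromosome 16, 89487619 to 89488197, minus strand, mm9) had 0.996, 1.27, 1.61, 535, 1.17 and 2443 CPM in mSCC-38, mSCC-20, tumour, papilloma 2, papilloma 1 and skin. Krtap7-1, also of a high glycine-tyrosine family, had 0.996, 1.23, 1.02, 359, 0.563 and 1765 CPM. Krtap22-2 had 0.151, 0.942, 0.498, 308, 0.609 and 977 CPM. Each of these genes was high in skin, lower in papilloma 2 and near 1 CPM or under in the other libraries, apart from Krtap8-1 at 1.61 CPM in the tumour.

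On chromosome 11 the members summed to 1546 CPM in papilloma 2 and 5759 CPM in skin. The high sulphur gene Krtap3-1 had 0.211, 0.682, 0.404, 245, 0.609 and 868 CPM in the same library order. Krtap1-5, of another high sulphur family, had 0.815, 0.357, 1.90, 291, 0.469 and 1204 CPM. Krtap9-3, an ultrahigh sulphur gene, had 0.181, 0.552, 0.404, 94.2, 0.375 and 470.2 CPM. They repeated the order seen on chromosome 16, with papilloma 2 between skin and the rest.

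The small clusters had lower levels. On chromosome 10, which summed to 54.2 CPM in papilloma 2 and 165 CPM in skin, Krtap10-10 had 0.0302, 0.0649, 0, 27.1, 0 and 87.1 CPM. Krtap12-1 had 0, 0.0649, 0.0475, 12.7, 0 and 38.04 CPM, and Krtap10-4 had 0, 0.0325, 0.0237, 14.4, 0 and 39.97 CPM; in humans, both families are known from the hair cuticle. No member of the chromosome 10 cluster had a count in papilloma 1. On chromosome 7, which holds the ultrahigh sulphur Krtap5 family, Krtap5-4 had 0.0302, 0.0649, 0.0237, 7.31, 0 and 28.8 CPM, Krtap5-5 had 0, 0, 0, 9.92, 0.0469 and 24.7 CPM, and Krtap5-1 had 0, 0, 0, 1.02, 0 and 4.75 CPM. These 3 members of chromosome 7 and all 3 of chromosome 10 were higher in skin than in papilloma 2 and had no more than 3 counts in any other library. The other 2 members of chromosome 7, Krtap5-2 and Krtap5-3, were higher in papilloma 2 than in skin and had under 2 CPM in both.

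Papilloma 2 was lower than skin in 48 of the 51 members. By a rule of size (at least 4-fold after adding 0.5 CPM to each side, with at least 10 CPM in the higher library), 11 of the 43 members with enough level were lower and 0 were higher, where 3.64% of all such genes were lower and 3.15% higher. The median log2 ratio of the 51 members was -1.75, against 0.06 over all 10803 genes with enough level. A 4-fold difference is close to the members' typical one, so the count moves with the scaling: with total counts in place of TMM it was 29.

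Members differed in their share of skin in papilloma 2. Among the 43, the level in papilloma 2 ran from 15.2% to 76.1% of skin, with quartiles of 24.95%, 28.8% and 34.1%, and 25 members lay between 10% and 30%. Across the 51 members, counts in papilloma 2 followed counts in skin (Spearman rho = 0.985, n = 51 genes that share these libraries and differ in length). Members that were higher per length in skin had somewhat smaller shares in papilloma 2 (rho = -0.484, n = 43; the skin level enters both measures). By class, with Krtap16-10 counted as high sulphur, the pooled share was 25.7% for high glycine-tyrosine, 24.04% for high sulphur and 26.7% for ultrahigh sulphur members. By chromosome it was 24.01% on chromosome 16, 26.9% on 11, 32.8% on 10 and 35.03% on 7.

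**Figure D2:**
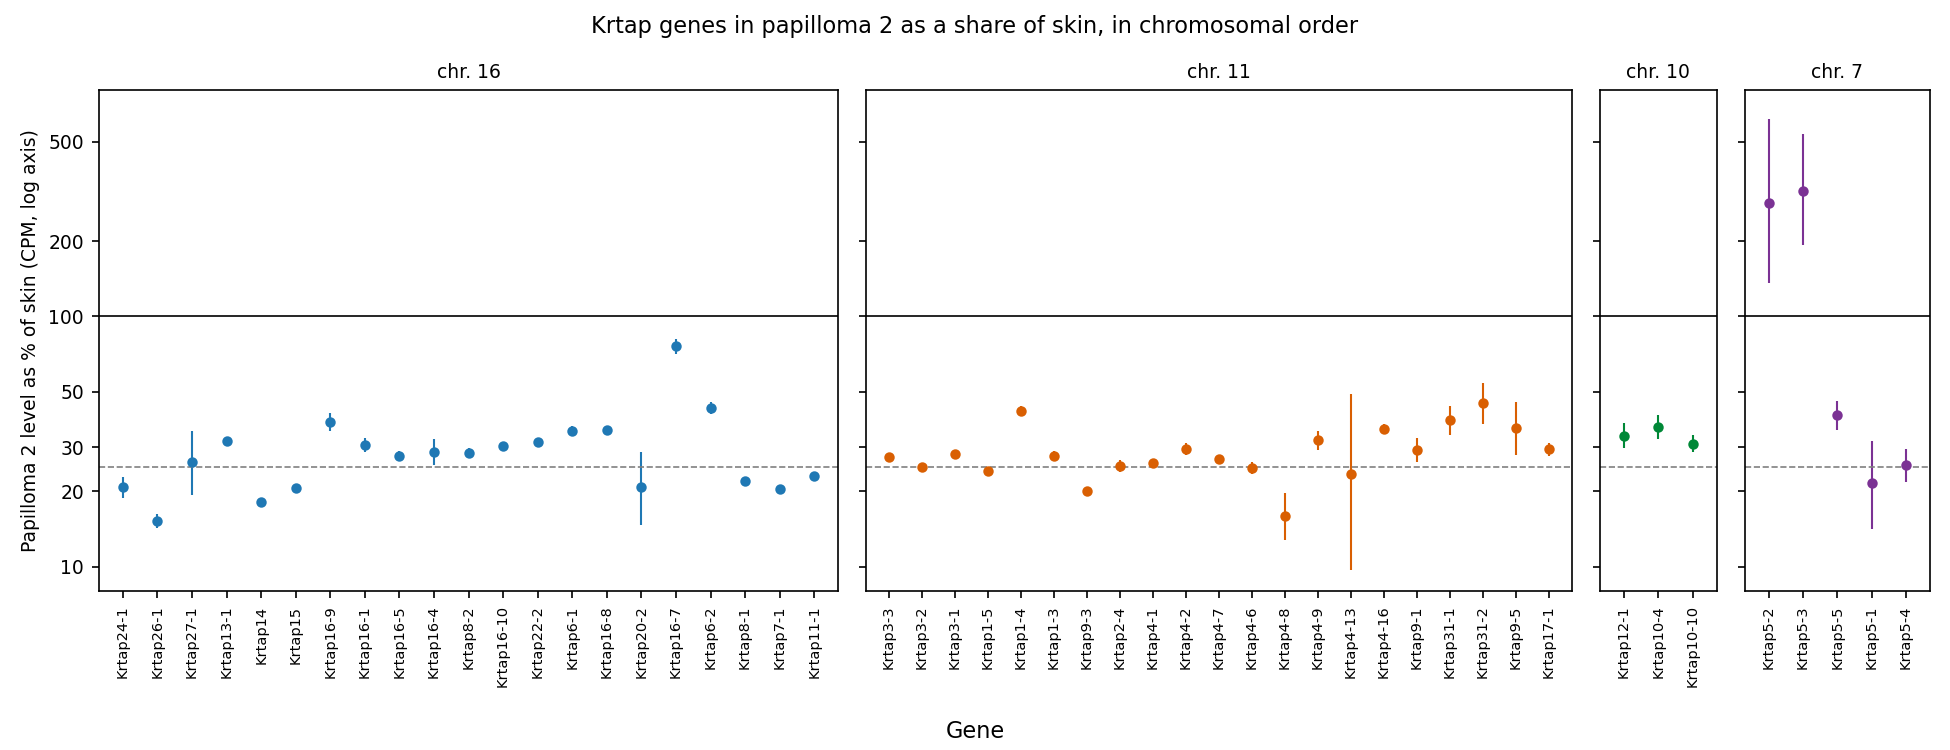
Level in papilloma 2 as a percentage of skin (log axis) for the 50 Krtap genes counted in skin, in chromosomal order, with 95% counting intervals. The dashed line is the pooled share (25.04%) and the solid line marks equal levels; Krtap16-7 (76.1%), Krtap5-2 (284%) and Krtap5-3 (318%) lie farthest above the dashed line.

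Among the 43 members with at least 10 CPM in skin, the lowest shares in papilloma 2 belonged to Krtap26-1, Krtap4-8, Krtap14 and Krtap9-3. The high sulphur gene Krtap26-1 had 0.0905, 0.162, 0.142, 32.6, 0.0469 and 214 CPM in mSCC-38, mSCC-20, tumour, papilloma 2, papilloma 1 and skin, so papilloma 2 reached 15.2% of skin (95% interval 14.2 to 16.3). Krtap4-8, an ultrahigh sulphur gene with 0, 0.0649, 0, 3.36, 0 and 21.1 CPM, reached 15.9% (12.8 to 19.6), and 49.5% of its words occur in other genes. Krtap14, a high sulphur gene with 0.513, 0.487, 0.498, 233, 0.281 and 1291 CPM, reached 18.1% (17.6 to 18.5). Krtap9-3 reached 20.04% (19.2 to 20.9).

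The highest shares among the same 43 members belonged to Krtap16-7, Krtap31-2, Krtap6-2 and Krtap1-4. Krtap16-7 (Krtap21-1 in RefSeq; chromosome 16, 89403272 to 89404019, mm9), of a high glycine-tyrosine family, had 0.0302, 0.0325, 0.0712, 41.6, 0.0938 and 54.7 CPM, so papilloma 2 reached 76.1% of skin (71.0 to 81.5). It stood well above the next member, and 8.41% of its words occur in other genes. Krtap31-2 reached 45.1% (37.3 to 54.2). Krtap6-2, of a high glycine-tyrosine family, had 0.121, 0.0649, 0.0712, 60.5, 0.0469 and 141 CPM and reached 43.0% (40.8 to 45.4). Krtap1-4, a high sulphur gene, had 0.151, 0.0974, 0.190, 83.5, 0.0469 and 199 CPM and reached 42.0% (40.2 to 44.0). Intervals of the lowest and the highest members were far apart, so the shares differed by more than counting error; with 1 skin library and 1 library of this papilloma, the spread between animals or lesions is not known.

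Members of a family did not share a single value. In the Krtap1 family, Krtap1-5 reached 24.1% (23.6 to 24.7) and Krtap1-3 27.8% (26.6 to 29.0), against the 42.0% of Krtap1-4. In the Krtap4 family, Krtap4-16 reached 35.6% (34.1 to 37.3) and Krtap4-7 26.9% (25.9 to 27.9), against the 15.9% of Krtap4-8. The Krtap3 genes were closer, at 27.5% (Krtap3-3), 25.1% (Krtap3-2) and 28.2% (Krtap3-1).

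Krtap5-2, Krtap5-3 and Krtap13 were the members that were not lower in papilloma 2. Krtap5-2 had 21 counts in papilloma 2 and 13 in skin, a level of 284% of skin (136 to 617). Krtap5-3 had 47 counts in papilloma 2 and 26 in skin, a level of 318% (193 to 534). Both had 0 counts in mSCC-38, mSCC-20, tumour and papilloma 1, and 42.6% and 15.6% of their words occur in other genes. Krtap13 had 0 counts in papilloma 2 and in skin, with 2 counts in the tumour and 1 in papilloma 1.

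Papilloma 1 was lower than skin in 50 of the 51 members. All 43 members with enough level were at least 4-fold lower, where 5.94% of all such genes were, and 0 were higher (4.03% of all genes). The median log2 ratio of the 51 members was -8.09, against 0.08 over 10856 genes with enough level. Krtap8-1 was 2085-fold lower and Krtap7-1 3137-fold lower than in skin, and Krtap4-8, with 0 counts in papilloma 1, was at least 150-fold lower. In papilloma 1, 19 members had no count and 32 had a count, where 17222 of all 22895 genes had a count. The median level of the 43 members was 0.0480% of skin.

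Papilloma 2 against papilloma 1 showed how far the 2 lesions with the same label differed in these genes. All 38 members with at least 10 CPM in either papilloma were at least 4-fold higher in papilloma 2, where 1.09% of all such genes were, and 0 were lower (0.0904% of all genes). The median log2 ratio of the 51 members was 6.29, against -0.04 over 9953 genes. Krtap8-1 had 535 CPM in papilloma 2 and 1.17 CPM in papilloma 1, a log2 ratio of 8.32.

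The spread between the papillomas set what the replicated tests could call. Krtap8-1 averaged 268 ± 378 CPM in papilloma (SD, n = 2), against 2443 CPM in skin, a log2 fold change of -3.18 (SE 2.39; adjusted p = 0.350, edgeR quasi-likelihood test). For papilloma against skin, edgeR called 0 of the 50 members tested, where 14.1% of all 16343 genes were called lower and 12% higher. Only Krtap4-13 had an unadjusted p under 0.05 in edgeR, where 7113 of all 16343 genes did. Its adjusted p of 0.111 was the smallest among the members. DESeq2 also called 0, where it called 11.5% of genes lower and 15.5% higher. The log2 fold change was below 0 in 48 of the 50 members. The median log2 ratio of the 51 members was -2.69 over both papillomas; it became -8.09 when papilloma 2 was left out and -1.75 when papilloma 1 was.

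For tumour against papilloma, edgeR likewise called 0 of 50 members, where 10.6% of genes were called lower and 12% higher. An unadjusted p under 0.05 was reached by 0 members, where 6297 of all 16343 genes reached it. All 50 log2 fold changes were below 0. Krtap5-5 had the smallest adjusted p, 0.156, and Krtap8-1 had a log2 fold change of -7.38 (SE 3.69; adjusted p = 0.212, edgeR). DESeq2 called 2 of 49 members lower, Krtap10-10 and Krtap16-5, where it called 12.3% of genes lower and 11.6% higher. Krtap10-10 had 0 counts in the tumour and also in papilloma 1, and Krtap16-5 had 4 counts in each. The direction rested on papilloma 2: the median log2 ratio of the members was -5.20 over both papillomas, -6.18 against papilloma 2 alone and 0.048 against papilloma 1 alone.

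The tumour was lower than skin in 50 of the 51 members, with 43 of 43 at least 4-fold lower (9.10% of all genes) and 0 higher (5.24% of all genes). The median log2 ratio was -7.89, against 0.11 over 11114 genes. Krtap8-1 was 1514-fold lower, Krtap7-1 1729-fold lower and Krtap10-10, with 0 counts in the tumour, at least 1224-fold lower. The median level of the 43 members was 0.0681% of skin.

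Between the cultures, no member reached the 10 CPM of the rule of size, where 3.30% of genes were at least 4-fold lower and 6.84% at least 4-fold higher in mSCC-38. The median log2 ratio of the members for mSCC-38 against mSCC-20 was -0.09, against -0.15 over 9801 genes. The highest members were Krtap8-1 at 0.996 CPM in mSCC-38 and Krtap15 at 1.46 CPM in mSCC-20. Members with no count numbered 15 in mSCC-38 and 11 in mSCC-20. The other 36 and 40 members had a count, where 15558 and 15401 of all 22895 genes did.

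In the libraries with few Krtap counts, the members ranked much as they did in skin. Across the 51 members, counts followed those of skin with a Spearman rho of 0.914 in mSCC-38, 0.924 in mSCC-20, 0.757 in the tumour and 0.896 in papilloma 1. Ranks do not show equal shares of skin. In the tumour, Krtap14 (0.0386%, 0.0239 to 0.0590), Krtap7-1 (0.0578%, 0.0419 to 0.0779) and Krtap8-1 (0.0661%, 0.0513 to 0.0838) lay below the pooled 0.112%. There, 6 members lay above the pooled share of the others, and members below it were not counted. The median share of skin over the 43 members was of the same size in the cultures, at 0.0441% in mSCC-38 and 0.0786% in mSCC-20, as in the tumour (0.0681%) and papilloma 1 (0.0480%). Whether these counts were made by cells of those libraries or came from reads of another library was not tested, so a fold below about 0.1% of skin is not an exact measure of expression.

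A few members of the chromosome 11 cluster stood well above the pooled share, a choice made after their values were seen. Krtap3-2 (chromosome 11, 99417137 to 99418167, minus strand, mm9) had 7, 8, 184, 3166, 74 and 22150 counts in mSCC-38, mSCC-20, tumour, papilloma 2, papilloma 1 and skin. Its level was 0.981% of skin in the tumour (0.844 to 1.13) and 0.779% in papilloma 1 (0.611 to 0.978), 10.9 and 15.1 times the pooled share of the other members. Its neighbours in the same family did not do so: Krtap3-1 had 7, 21, 17, 6935, 13 and 43175 counts, and Krtap3-3 had 4, 7, 10, 2998, 7 and 19158 counts. Without Krtap3-2, the other members of papilloma 1 stood at 0.0517% of skin.

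Krtap31-2 (chromosome 11, 99797605 to 99798539, plus strand, mm9) had 0, 0, 83, 144, 0 and 561 counts in the same order. Its tumour level was 1.97 CPM, against 11.3 CPM in skin, which is 17.5% of skin (13.7 to 22.03) and 172 times the pooled share of the other members. Krtap9-5, the next member along the chromosome (99809789 to 99810865, plus strand), had 0, 0, 34, 83, 0 and 408 counts, so the tumour reached 9.84% of skin (6.72 to 13.97), 91.1 times the pooled share. Both were counted in the tumour, papilloma 2 and skin, and in none of the other 3 libraries. Their upper limits in papilloma 1 were 1.54% (Krtap31-2) and 2.12% (Krtap9-5) of skin, above the pooled share. The 0 counts there therefore mark no departure from the proportions of skin. Krtap31-1, on the other side of Krtap31-2, had 3, 2, 4, 267, 0 and 1222 counts, and its tumour level was 0.386% of skin. Of the words of Krtap31-2 and Krtap31-1, 47.6% and 43.8% occur in another gene, and of those of Krtap9-5 none do. In the tumour, Krtap4-16 (28 counts) and Krtap1-5 (80 counts) were 2.67 and 1.44 times the pooled share. In mSCC-20 4 members exceeded it, by up to 2.86 times, and in mSCC-38 only Krtap31-1 did, on 3 counts. By cluster, the tumour reached 0.221% of skin on chromosome 11 (0.202 to 0.240) and 0.0614% on chromosome 16 (0.0547 to 0.0687), and papilloma 1 reached 0.124% and 0.0446%. A few members carried a large part of the chromosome 11 values. Without Krtap3-2, Krtap31-2 and Krtap9-5, which held 301 of the 535 counts there, the tumour reached 0.105% (0.0919 to 0.119). Without Krtap3-2, which held 74 of 152 counts, papilloma 1 reached 0.0688% (0.0544 to 0.0859). Both values stayed above those of chromosome 16, where the interval of papilloma 1 was 0.0368 to 0.0537, and the intervals did not overlap.

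**Figure D3:**
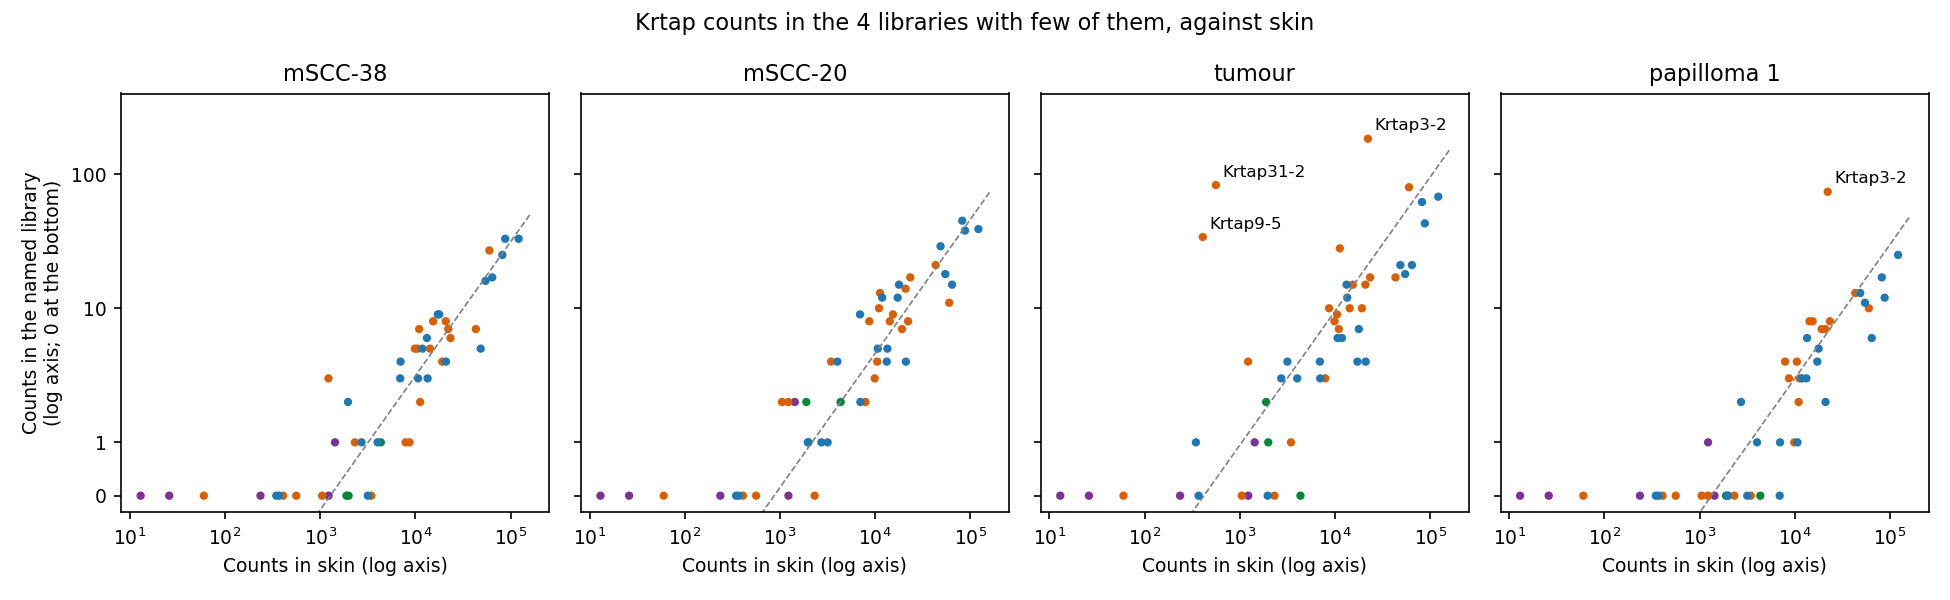
Counts of each Krtap gene in mSCC-38, mSCC-20, tumour and papilloma 1 (log axis, 0 drawn at the bottom) against its counts in skin (log axis); points are coloured by chromosome as blue 16, orange 11, green 10 and purple 7, and the dashed line is the ratio of the summed counts. Most points rise along the line, though several abundant genes lie below it in the tumour. Krtap31-2, Krtap9-5 and Krtap3-2 lie above it in the tumour, with Krtap3-2 above it in papilloma 1.

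The sequences upstream of these genes are shown because Krtap31-1 and Krtap31-2, whose upstream sequences are nearly identical, had different counts in the tumour; Krtap9-5 and the Krtap3 genes are given beside them. Each is the 120 bases directly before the transcription start in RefSeq (GRCm38.p6), 5′ to 3′ on the gene's strand. Capitals mark the TATA box motif TATAAA on the sense strand and the CCAAT motif on either strand, which reads ATTGG where it lies on the opposite strand. The most abundant member, Krtap8-1, is given first.
Krtap8-1, chr16:89487953-89488072, minus strand: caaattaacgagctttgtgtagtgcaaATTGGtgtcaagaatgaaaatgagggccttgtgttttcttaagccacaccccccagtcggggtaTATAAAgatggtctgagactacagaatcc
Krtap3-1, chr11:99566631-99566750, minus strand: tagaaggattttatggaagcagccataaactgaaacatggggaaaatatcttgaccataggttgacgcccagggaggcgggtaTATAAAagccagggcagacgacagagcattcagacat
Krtap3-2, chr11:99556854-99556973, minus strand: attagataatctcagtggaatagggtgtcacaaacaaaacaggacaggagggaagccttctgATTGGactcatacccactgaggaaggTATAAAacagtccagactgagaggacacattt
Krtap3-3, chr11:99550864-99550983, minus strand: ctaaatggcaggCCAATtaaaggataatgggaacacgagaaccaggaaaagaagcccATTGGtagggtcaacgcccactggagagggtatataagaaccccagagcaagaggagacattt
Krtap31-1, chr11:99907800-99907919, plus strand: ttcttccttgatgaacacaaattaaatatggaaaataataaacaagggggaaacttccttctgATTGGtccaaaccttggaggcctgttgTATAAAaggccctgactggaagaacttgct
Krtap31-2, chr11:99936171-99936290, plus strand: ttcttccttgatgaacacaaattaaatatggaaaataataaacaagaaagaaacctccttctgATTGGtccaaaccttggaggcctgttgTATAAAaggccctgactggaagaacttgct
Krtap9-5, chr11:99948304-99948423, plus strand: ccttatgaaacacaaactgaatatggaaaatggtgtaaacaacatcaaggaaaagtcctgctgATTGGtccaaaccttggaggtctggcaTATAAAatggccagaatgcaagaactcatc

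The stretches of Krtap31-1 and Krtap31-2 were identical at 116 of 120 positions (96.7%), although the tumour held 4 counts of Krtap31-1 and 83 of Krtap31-2. That of Krtap9-5 was 73.8% identical to Krtap31-2 and 72.2% to Krtap31-1, and each of them carried TATAAA at 30 bases and the reversed CCAAT at 57 bases before the start. The Krtap3 stretches were 56.6% to 60.0% identical to each other, against 52.2% for Krtap8-1 and Krtap31-2 of different clusters, with TATAAA at 37 bases in Krtap3-1, at 32 bases in Krtap3-2 and no such match in Krtap3-3. Krtap8-1 carried it at 29 bases. Of the 46 members with a promoter in the RefSeq table, 36 (78.3%) held TATAAA on either strand within these 120 bases, against 6.76% of all 27025 promoters. For TATAAA on the sense strand starting 20 to 40 bases before the start, the shares were 58.7% of members and 2.22% of all promoters. CCAAT on either strand was held by 21.7% of members and 22.1% of all promoters.

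Other hair shaft genes were set beside the members, whose median level over the 50 counted in skin was 0.0663% of skin in the tumour, 28.7% in papilloma 2 and 0.0361% in papilloma 1. The hair shaft keratins, the filament proteins to which Krtap proteins bind, had medians of 0.128%, 23.5% and 0.0578% (15 genes). Their sums were 0.184%, 24.2% and 0.363% of skin, against 0.112%, 25.04% and 0.0699% for the members. Of these 15, edgeR called 1 lower and 0 higher in papilloma against skin, Krt84 (adjusted p = 0.0240), where it called 14.1% of all genes lower and 12% higher. It called the same gene lower, with 0 higher, in tumour against papilloma (adjusted p = 0.00625), where it called 10.6% and 12% of all genes. Krt84, a type II hair keratin gene that had 1.78, 23.3, 15.2 and 53.9 CPM in tumour, papilloma 2, papilloma 1 and skin, stood apart in papilloma 1, at 28.2% of skin, and gave 15.2 of the 21.2 CPM to which these keratins summed there. Krt36 stood apart in the tumour, at 6.74% of skin, and reached 4.38% in papilloma 1. The inner root sheath genes, which shape the growing hair from outside, had medians of 0.0797%, 26.4% and 0.0684% of skin in tumour, papilloma 2 and papilloma 1, and sums of 0.145%, 29.3% and 0.169%. Of these 8 genes, edgeR called 0 in either comparison, and DESeq2 called 1 lower in tumour against papilloma, Krt28 (adjusted p = 0.0414).

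Genes that regulate or modify the hair shaft differed among themselves. Their 17 genes, with the companion layer keratin Krt75 among them, had a median level of 4.39% of skin in the tumour, 33.9% in papilloma 2 and 10.1% in papilloma 1. In papilloma against skin, edgeR called 4 of the 17 lower and 3 higher, where 14.1% of all genes were called lower and 12% higher, and in tumour against papilloma 7 lower and 0 higher, where the shares were 10.6% and 12%. Gprc5d and Crym lay near the medians of the Krtap genes: Gprc5d reached 0.112%, 23.1% and 0.0619% of skin in tumour, papilloma 2 and papilloma 1, and Crym 0.107%, 21.9% and 0.0606%. S100a3, which encodes a calcium-binding protein of the hair cuticle, reached 10.7%, 27.4% and 0.333%, and Dsg4, which encodes a desmosomal cadherin of the hair shaft, reached 6.64%, 18.9% and 0.150%. Foxn1, the transcription factor lost in nude mice, had 5.63, 28.4, 25.7 and 59.2 CPM in tumour, papilloma 2, papilloma 1 and skin. It fell in papilloma against skin (log2 fold change -1.13, adjusted p = 0.0132, edgeR). Hoxc13, a transcription factor required for hair keratin expression, had 0.522, 37.5, 2.81 and 137 CPM and passed no test. Papilloma 1 held 43.4% of the skin level of Foxn1, 2.05% of that of Hoxc13 and 0.0699% of that of the Krtap genes. Papilloma 2 held 48.0%, 27.3% and 25.04%. The 3 genes called higher in papilloma against skin, Ovol1, Prdm1 and Tgm3, reached 327%, 208% and 1458% of skin in papilloma 1. Foxn1 also reached 47.2% of skin in the culture mSCC-20. Several genes on this list, such as the transglutaminase gene Tgm3, are also expressed in the epidermis outside hair follicles.

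Markers of other cell types in skin gave unlike values. Melanocyte genes summed to 0.449% of skin in the tumour, 36.1% in papilloma 2 and 2.06% in papilloma 1 (7 genes), with the pigment gene Oca2 at 0 counts in the tumour and papilloma 1. Skeletal muscle genes summed to 6.93%, 11.6% and 18.99% (4 genes), highest in papilloma 1. In papilloma against skin, edgeR called 3 of the 4 muscle genes lower and 0 higher, and 0 of the 7 melanocyte genes. The shares of all genes were 14.1% lower and 12% higher. Of 8 outer root sheath and bulge genes, edgeR called 4 lower in papilloma against skin, Krt15, Sox9, Lhx2 and Lgr5, and 1 higher, Krt14. Over all genes it called 14.1% lower and 12% higher. The medians of the 8 were 103% of skin in the tumour, 56.6% in papilloma 2 and 44.2% in papilloma 1. The tumour values were mixed: Krt14 (730%), Krt5 (363%), Krt17 (157%) and Sox9 (140%) were above skin. Cd34 (65.1%), Krt15 (17.6%), Lgr5 (4.78%) and Lhx2 (1.61%) were below it. Krt15, a bulge keratin gene, reached 15.3% in papilloma 2 and 10.7% in papilloma 1. Of 4 dermal papilla genes, edgeR called Alx4 lower and Crabp1 higher in papilloma against skin, beside the same 14.1% and 12% of all genes. Corin reached 19.8% of skin in papilloma 2 and 0.418% in papilloma 1, with 0 counts in the tumour. Crabp1 reached 114%, 309% and 332% in tumour, papilloma 2 and papilloma 1. In mSCC-38 and mSCC-20 the muscle genes summed to 0.133% and 0.0537% of skin. The part of these cell types in the Krtap result was not tested.

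**Figure D4:**
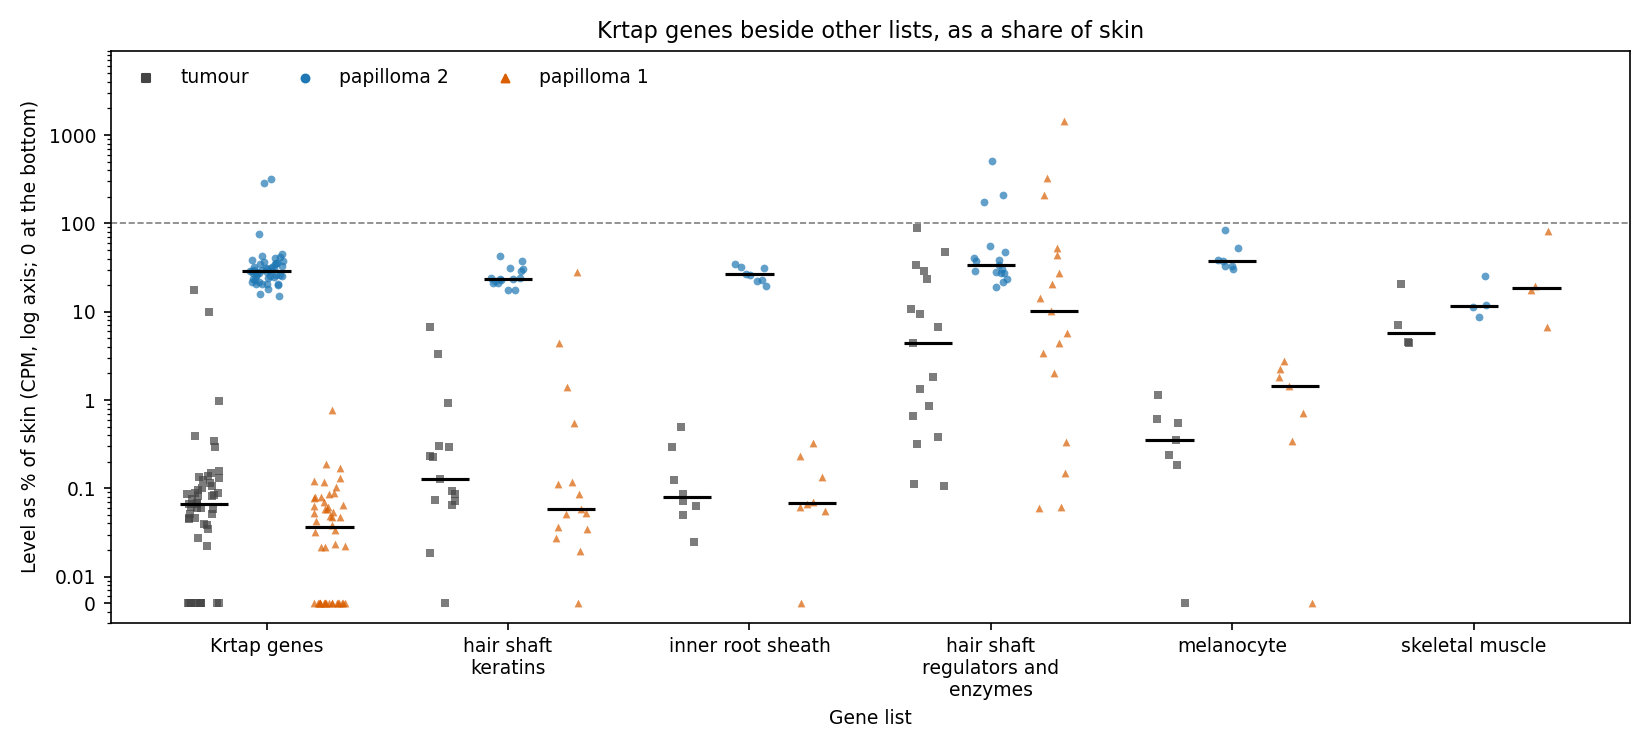
Level as a percentage of skin (log axis, 0 drawn at the bottom) of each gene of 6 lists in the tumour (squares), papilloma 2 (circles) and papilloma 1 (triangles), with a bar at each list's median. Krtap genes, hair shaft keratins and inner root sheath genes lie mostly near 20% to 40% in papilloma 2 and under 1% in the tumour and papilloma 1, while the regulators and enzymes spread over several orders of magnitude.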

How the data were processed

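Gene expression was measured in 6 libraries. The authors deposited a table with raw counts and RPKM values per gene model and library, per the file headers, with positions and lengths. Per the submitters' processing notes the build was mm9. How reads were aligned, and counted with or without strand, is not given in the sources used here. The count columns were whole numbers and were used as deposited; the deposited RPKM values served as an alternative. Duplicate models of a gene were summed.

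Levels are CPM with edgeR's TMM factors (edgeR 4.0.16, limma 3.58.1, R 4.3.3). The 4 biopsies were fitted together with edgeR's quasi-likelihood test over 16343 genes that passed its default filter (1 residual degree of freedom, from the papillomas, so skin and tumour are assumed to vary as these do), with Benjamini-Hochberg adjustment over all of them and calls at 0.05. The filter left out Krtap13. DESeq2 1.42.0 was an alternative. The edgeR step was also run on data simulated from the fitted trend in spread. That trend does not carry the large difference of the members between the papillomas, so the run says nothing about these genes. Comparisons of 1 library against 1 used a rule of size, without a p-value. Shares of skin are ratios of CPM, and shared 35-base words were counted over GENCODE release M21 transcripts. Promoters and symbols are from RefSeq.

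Genes given in full were the 3 highest per cluster in skin per length, the 4 lowest and 4 highest shares in papilloma 2 among members with 10 CPM in skin, any member with 10 CPM in the other libraries, and members past the edgeR threshold. The members and lists were chosen with earlier results of these data known.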

Additional observations from a re-analysis of the deposited data

How the results depend on the processing

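The members called lower or higher by edgeR stayed at 0 with DESeq2's size factors, total counts, no filter on low counts and duplicate models kept apart; the smallest adjusted p was then 0.0740 (papilloma against skin) and 0.0926 (tumour against papilloma), both without the filter. The DESeq2 test called 2 members lower in tumour against papilloma. Leaving out a papilloma leaves no residual degrees of freedom, so only ratios are given: the median log2 ratio ranged from -8.09 to -1.75 in papilloma against skin and from -6.18 to 0.048 in tumour against papilloma, where it changed sign without papilloma 2. With total counts, deposited RPKM and the 20 members with under 10% of words shared (an alternative chosen after seeing the data), the pooled share of skin was 19.7%, 20.03% and 23.7% in papilloma 2, 0.0494%, 0.0453% and 0.0452% in papilloma 1, and 0.0919%, 0.0785% and 0.0782% in the tumour. With DESeq2's size factors it was 24.8% in papilloma 2. The members at least 4-fold lower in papilloma 2 numbered 29 with total counts. The summed level was 4594 CPM (DESeq2's size factors) and 4221 CPM (total counts) in papilloma 2, 10.6 CPM (total counts) in papilloma 1, and 18546 and 21411 CPM in skin. Total counts moved the median log2 ratio of all genes to -0.31 in papilloma 2, -0.44 in papilloma 1 and -0.21 in the tumour, each against skin. Of 75 ratios of named members, none changed direction under DESeq2's size factors, total counts or a pseudocount of 0.1 CPM. No paired analysis was possible because every group except papilloma has 1 library. Leaving out Krtap3-2, or it with Krtap31-2 and Krtap9-5, was also chosen after seeing the data. Depth limits what a member with 0 to 3 counts can show.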
